A study of Mus musculus with 12 samples.

Results

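TRP (transient receptor potential) channels are a family of cation channels. Trpv1 encodes the capsaicin receptor TRPV1. Its relatives sense heat, cold, irritants, osmotic or mechanical stress, or carry cations into the cell. The 10 members described here are Trpv1 and 9 relatives: Trpv2, Trpv3, Trpv4, Trpv6, Trpa1, Trpm8, Trpm4, Trpm7 and Trpc1. They were chosen by name, with earlier results of these data known. They are 10 of the 55487 genes in the expression tables, and 17 other TRP family genes are given beside them. The 12 libraries came from full-thickness skin wounds, with the surrounding tissue, on the backs of male C57BL/6JNarl mice that were 6 weeks old and carried 2 wounds of 6 mm diameter each. There were 4 groups of 3 libraries: gel-only wounds at day 3 (sham) and wounds given 10 µM capsaicin (CAP) in the same Pluronic F127 gel once daily at day 3, and the same pair at day 6. All wounds were dressed alike, and the sources used here do not say whether libraries of a group shared a mouse. The p-values therefore measure the spread between these libraries.

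A TRP channel is a ring of subunits around a pore, and its opening lets cations, often calcium, into the cell. TRPV1 opens to capsaicin, noxious heat and acid, and is best known from the peripheral endings of pain-sensing neurons, whose cell bodies and most of whose messenger RNA lie in ganglia outside the skin. TRPV3 and TRPV4 are warmth-sensitive channels of keratinocytes, the cells that make up the epidermis, and TRPV6 is a highly calcium-selective channel of epithelia. TRPV2 is abundant in macrophages and other leukocytes. TRPM7 couples a channel to a protein kinase and is found in nearly all cells, and TRPM4 is opened by intracellular calcium but passes only monovalent ions.

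The stretches of DNA just before the transcription start of 3 members are shown because these genes stand at the top, in the middle and near the bottom of the expression range given below. Each is the 250 bases before the start, 5′ to 3′ on the gene's own strand, from RefSeq on GRCm38.p6, and the capitals mark CG dinucleotides, which are dense in many promoters of widely expressed genes. The windows are chr2:126876262-126876511 on the minus strand for Trpm7, chr6:41636406-41636655 on the minus strand for Trpv6 and chr11:73233899-73234148 on the plus strand for Trpv1.
Trpm7: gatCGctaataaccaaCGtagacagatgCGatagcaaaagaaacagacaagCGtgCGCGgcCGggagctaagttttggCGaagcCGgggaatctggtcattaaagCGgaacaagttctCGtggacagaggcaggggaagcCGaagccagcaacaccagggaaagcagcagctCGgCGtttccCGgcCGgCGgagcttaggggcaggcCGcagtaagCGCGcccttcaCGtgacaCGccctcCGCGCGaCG
Trpv6: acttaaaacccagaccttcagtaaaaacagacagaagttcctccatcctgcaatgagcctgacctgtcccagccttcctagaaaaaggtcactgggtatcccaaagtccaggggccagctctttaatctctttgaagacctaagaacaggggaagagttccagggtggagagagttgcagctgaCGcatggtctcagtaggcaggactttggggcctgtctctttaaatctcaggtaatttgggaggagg
Trpv1: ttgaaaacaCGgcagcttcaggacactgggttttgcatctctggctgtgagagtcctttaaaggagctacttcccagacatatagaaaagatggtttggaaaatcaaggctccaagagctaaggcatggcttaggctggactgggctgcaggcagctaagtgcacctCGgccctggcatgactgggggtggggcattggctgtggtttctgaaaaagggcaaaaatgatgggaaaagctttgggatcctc
The Trpm7 window held 26 CG dinucleotides, more than 90.4% of the 32851 mouse promoter windows of this length, whose median was 6. The windows of Trpv6 and Trpv1 held 1 and 2, and 7.87% and 18.8% of all windows held fewer. Of the 8 members in the promoter table, the mechanically and osmotically gated Trpv4 had 22 and Trpc1, a subunit of receptor- and store-linked calcium channels, had 17. Trpv3 had 3, the cold receptor gene Trpm8 had 1, and the 3 listed starts of Trpv2 had 2, 2 and 5. The RefSeq starts are not always the gene starts of the expression tables. The Trpm8 window (chromosome 1, 88306485 to 88306734) lies inside the gene (88277661 to 88389293). The windows of Trpv3, Trpc1 and the later Trpv2 starts also reach into their genes. Trpa1 and Trpm4 were not among the entries used. These counts describe the letters in the windows and were not tested against expression.

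In the annotation of the same build (GENCODE M21, GRCm38), all 10 members are protein-coding and had the same coordinates as in the tables. Trpv1 (chromosome 11, 73234292 to 73261242) and Trpv3 (chromosome 11, 73267388 to 73300363) are neighbours on the plus strand, 6146 bp apart. Trpv6 (chromosome 6, 41620624 to 41636405, minus strand) lies 115 bp from Ephb6, and Trpv2 lies at 62574486 to 62600515 of chromosome 11 on the plus strand. No member overlaps a gene on its own strand. By whole gene span, introns included, Trpm8, Trpm4 and Trpm7 overlap 4930453O03Rik, Rpl14-ps1 and Gm14212 on the other strand. Whether exons of these pairs overlap was not checked, and the sources used here do not say whether counting used strand. Whether reads of these pairs can be told apart is thus not known. Stretches of 31 bases shared in the same orientation with a transcript of another gene made up between 0% and 2.51% of each member's transcripts. The opposite orientation was not compared.

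Values are TPM (a transcript abundance that sums to the same total in every library), a scale that is already divided by transcript length, so levels can be set beside each other between genes. The number of reads behind them is unknown, and a gene without reads is written as 0.0001, called listed at 0 here. In each library between 18533 and 19325 genes reached 0.3 TPM, and the share of the total held by the top 10 genes was 8.27% to 14.1%, highest in CAP day 6 replicate 2. The CAP against sham result at day 6 depended much on CAP day 6 replicate 3. Leaving it out took the genes that differed at a limma adjusted p under 0.05 from 0 to 1430. The channel results that turn on it are given both ways. Over the 16169 genes averaging 1 TPM or more, its Pearson's r across genes was 0.9712 to 0.9759 with the sham day 6 libraries. With CAP day 6 replicates 1 and 2 it was 0.9651 and 0.9525. Replicate 1 was about as close to replicate 2 (0.9677) as to replicate 3, and at 0.9576 to 0.9585 with sham. Replicate 2 was furthest from sham, at 0.9318 to 0.9368. Genes are not independent replicates, and the label of replicate 3 was kept.

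The members fell into 3 tiers. Trpm7, Trpv2, Trpm4, Trpv4 and Trpv3 had means over the 12 libraries of 26.8, 23.8, 16.1, 14.3 and 9.92 TPM, and these 5 genes held 94.4% to 97.4% of the summed level of the 10 members, which ran from 79.7 to 112 TPM. Trpc1 and Trpv6 followed at means of 1.43 TPM each. Trpv1, Trpm8 and Trpa1 had means of 0.121, 0.0522 and 0.00173 TPM and reached 0.3 TPM in no library. Between neighbours in this order, the ranges over the 12 libraries were apart for Trpv4 and Trpv3, for Trpv3 and Trpc1, and for Trpv6 and Trpv1, and overlapped for every other neighbouring pair. Trpm7 was above Trpv2 in 9 of 12 libraries, and Trpc1 above Trpv6 in 7 of 12.

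**Figure D1:**
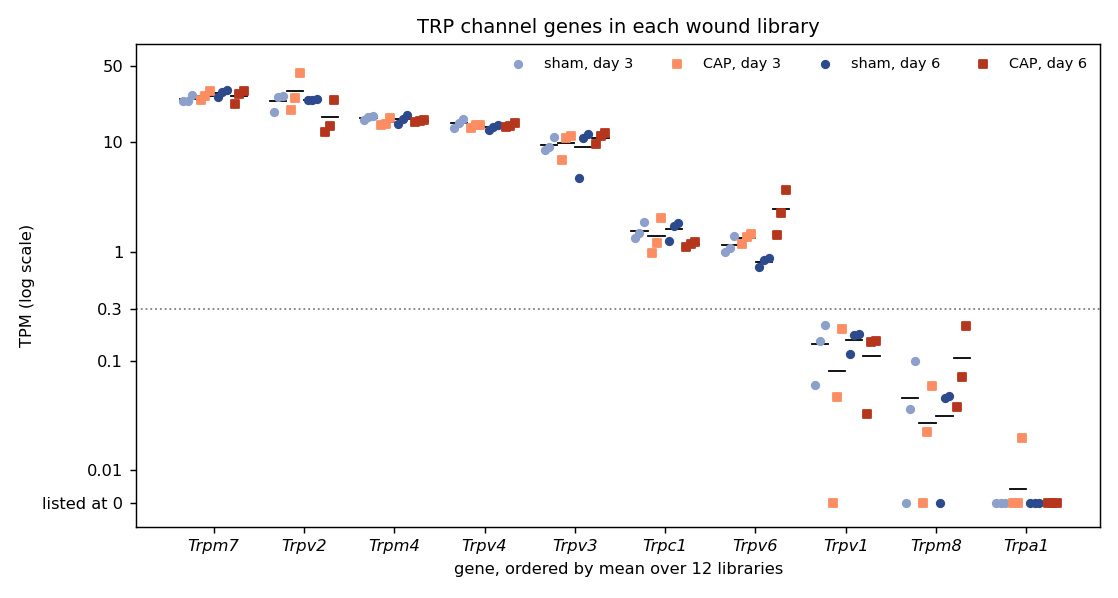
TPM on a log scale for the 10 TRP genes in each of the 12 wound libraries (points, 3 per group; circles sham, squares CAP, darker at day 6), with black bars at group means and a dotted line at the 0.3 TPM filter. Trpm7, Trpv2, Trpm4, Trpv4 and Trpv3 lie between 4.68 and 43.1 TPM, Trpc1 and Trpv6 between 0.717 and 3.64 TPM, and Trpv1, Trpm8 and Trpa1 stay under the line.

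The capsaicin receptor gene itself had low values in every library. Trpv1 read 0.211, 0.151 and 0.0599 TPM in the sham group at day 3, and 0.0463, 0.195 and 0 (listed) in CAP-treated wounds. At day 6 it read 0.114, 0.175 and 0.172 TPM in the sham group and 0.151, 0.0322 and 0.147 TPM in CAP-treated wounds. The groups overlapped at both days. An exact two-sided permutation test on log2(TPM + 0.1) gave p = 0.4 at day 3 and p = 0.5 at day 6, where 0.1 is the smallest value 3 against 3 libraries allow. Over both days, with libraries exchanged within a day, the log2 difference was -0.42 (exact permutation p = 0.205, smallest possible 0.005). A difference in Trpv1 was thus not detectable at these levels. A total of 21305 genes had a higher mean.

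The irritant receptor gene Trpa1 was listed at 0 in 11 of 12 libraries and read 0.0196 TPM in CAP day 3 replicate 2. Trpm8, the receptor for cold and menthol, was listed at 0 in 3 libraries and reached 0.209 TPM in CAP day 6 replicate 3, its highest value. Its groups overlapped in all 4 comparisons of groups, with exact permutation p between 0.2 and 1. All 3 sensory members were below the filter on low values, a mean of 0.3 TPM in both groups compared, so that 7 of the 10 members entered each fit across genes.

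Other genes of sensory neurons were measured beside these 3. Of 15 sensory neuron markers, 6 were under 0.3 TPM in every library, and the nociceptor sodium channel Scn10a and the itch receptor Mrgprd were listed at 0 in all 12. Scn9a and Scn11a, the other nociceptor sodium channels listed, did not exceed 0.0291 and 0.0456 TPM. The summed level of the 15 genes ran from 45.4 to 51.2 TPM in sham and 35.2 to 54.2 in CAP-treated wounds at day 3, and from 27.2 to 32.1 and 25.0 to 30.8 TPM at day 6. Most of these sums came from Tubb3 and Uchl1, which are not limited to neurons. For CAP against sham at day 6, 2 of the 6 markers tested passed the study's threshold, an unadjusted limma p under 0.05 with a change of at least 2-fold: Uchl1 (log2 -1.15) and the touch channel gene Piezo2 (-1.49), both lower. Of all genes 3.8% passed that threshold, and no marker passed an adjusted p under 0.05 (lowest 0.208). The other 4 lay between -0.59 for Isl1 and 0.47 for Pou4f1, with Avil at 0.42 and Tubb3 at 0.15. Of the neuropeptides that TRPV1-bearing fibres release, Calca (CGRP) and Tac1 (substance P) stayed under 0.3 TPM, while Calcb read 8.01 to 24.0 TPM.

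Differences were tested with limma on log2(TPM + 0.1), and a gene was called by the study's threshold or by a Benjamini-Hochberg adjusted p under 0.05 over all genes tested. The comparisons share libraries with each other. The median log2 difference over all genes at day 6 was -0.12 for CAP against sham, and a median-ratio scaling or quantile normalization moved it by over 0.1, to -0.01 and 0.00, so small day 6 differences are best read against that shift.

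The question of the CAP against sham comparison was what topical capsaicin did to the wound transcriptome, here to the channel genes. At day 3, 0 of the 7 members tested passed the study's threshold, which 1.58% of all 18330 genes passed, and 0 passed the adjusted p, which 0.0164% passed. None of the 7 had an unadjusted p under 0.05 in limma, against 6.6% of all genes. No member's groups were apart, while 11.6% of all genes had groups that did not overlap. The log2 differences lay between -0.19 for Trpc1 and 0.24 for Trpv2. The 95% intervals were narrow for Trpm4 (-0.39 to 0.11), Trpm7 (-0.16 to 0.35) and Trpv4 (-0.33 to 0.18), so a 2-fold change of these 3 genes lay outside them.

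At day 6 Trpv6 was higher in CAP-treated wounds. It read 0.831, 0.717 and 0.867 TPM in the sham group and 3.64, 2.27 and 1.41 TPM in CAP-treated wounds, means of 0.805 ± 0.0782 and 2.44 ± 1.12 TPM (SD, n = 3). Every CAP value was above every sham value, with replicate 1 the highest and replicate 3 the lowest of the CAP group. The log2 difference was 1.40 (SE 0.37, 95% interval 0.53 to 2.26), a 2.63-fold difference on the TPM + 0.1 scale. Its limma p was 0.00654, past the study's threshold, and its adjusted p was 0.208, not past 0.05. The exact permutation p of 0.1 is the smallest that 3 against 3 libraries can give. Without CAP day 6 replicate 3 the log2 difference was 1.72 with a limma adjusted p of 0.0380, without replicate 1 it was 1.07 (adjusted p 0.352), and with a pseudocount of 1 TPM in place of 0.1 it was 0.88, short of 2-fold.

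Trpv6 was the 1 of 7 members past the study's threshold at day 6, which 3.8% of all genes passed, while 0% passed the adjusted p. With CAP day 6 replicate 3 left out, those shares were 8.17% and 7.88%. The adjusted p was then passed by 2 members, Trpv6 and Trpv2. That library was singled out from these same data and was the CAP day 6 library closest to sham. Leaving it out can be expected to widen the difference, so these 2 calls are no separate support. Without CAP day 6 replicate 2, the study's threshold called 311 of all genes in place of 697. Groups did not overlap for Trpv6 (CAP higher) and Trpc1 (CAP lower), against 26% of all genes. Limma gave an unadjusted p under 0.05 for 2 of 7 members, Trpv6 and Trpv2, against 19.2% of all genes. Trpv6 made up 0.767% to 0.967% of the summed TRP level in the sham group and 1.45% to 4.09% in CAP-treated wounds at day 6.

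Some keratin genes were higher in the same day 6 comparison, and others were not. In bulk tissue a larger number of cells of a type and more RNA per cell cannot be told apart. Of 12 keratinocyte markers, 3 passed the study's threshold, all higher in CAP-treated wounds: Krt1 (log2 1.86) and Krt10 (1.62), keratins of the differentiating epidermis, and Krt15 (1.21), a basal and hair follicle keratin. Of all genes 3.8% passed that threshold. None of the 12 passed the adjusted p, which 0% of all genes passed, and 5 had a limma p under 0.05, against 19.2% of all genes. The wound keratins Krt6a, Krt16 and Krt17 had log2 differences of -0.02, 0.31 and -0.39, and the adhesion genes Dsg3 and Itga6 -0.24 and -0.10, none past the threshold. Krt10 read 7432, 7490 and 8321 TPM in the sham group and 19544, 40801 and 16989 TPM in CAP-treated wounds. The summed level of the 12 markers was 32363 to 39474 TPM in the sham group and 48525 to 99150 TPM in CAP-treated wounds, and no marker of the list was at 0. Trpv3, the keratinocyte channel gene, read 11.8, 11.0 and 4.68 TPM in the sham group and 12.2, 11.5 and 9.59 TPM in CAP-treated wounds, with a log2 difference of 0.38 (95% interval -0.45 to 1.20) that became -0.04 without sham day 6 replicate 3. The part of the keratinocyte markers in the Trpv6 result was not tested. Over the 12 libraries, whose tissue makeup may differ, Pearson's r between Trpv6 and the 12 markers ran from -0.115 to 0.652 (median 0.366). On deviations from the group means it ran from -0.15 to 0.804 (median 0.397). Krt10 was at 0.616 and, on those deviations, at -0.0872, while Krt14 went from 0.35 to 0.723 and Krt6a from 0.145 to 0.804.

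Trpv2 had the widest spread among the abundant members. At day 6 it read 24.3, 24.4 and 25.2 TPM in the sham group and 14.1, 12.4 and 24.4 TPM in CAP-treated wounds. CAP replicates 1 and 2 were below every sham library and replicate 3 was among them. The log2 difference was -0.60 (95% interval -1.18 to -0.02, limma adjusted p = 0.250), under 2-fold, with an exact permutation p of 0.3. Without CAP day 6 replicate 3 it was -0.89 with a limma adjusted p of 0.0304. It was -0.50 without replicate 1 (adjusted p 0.453) and -0.41 without replicate 2 (adjusted p 0.496). The unadjusted limma p of 0.0443 became 0.0895 to 0.127 on leaving out any library other than CAP replicate 3. It was 0.0631 under median-ratio scaling and 0.0613 under quantile normalization. At day 3 it read 26.2, 19.1 and 26.4 TPM in the sham group and 19.8, 25.5 and 43.1 TPM in CAP-treated wounds, and the log2 difference of 0.24 was -0.07 without CAP day 3 replicate 3.

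Some macrophage markers varied between libraries along with Trpv2. Cd68, a lysosomal protein of macrophages, read 1732 TPM in CAP day 3 replicate 3, where Trpv2 was highest, and 425 TPM in CAP day 6 replicate 2, where Trpv2 was lowest. Over the 12 libraries Pearson's r between Trpv2 and Cd68 was 0.971, and 0.965 on deviations from the group means. Adgre1, which encodes the macrophage surface protein F4/80, was at 0.905, but Csf1r, a receptor for macrophage growth factors, was at 0.173 and the scavenger receptor gene Cd163 at -0.471. The median over the 12 markers was 0.432, and 0.69 on deviations from the group means. Between Trpv2 and epidermal keratins, r over the 12 libraries was -0.875 for Krt5, -0.857 for Krt1, -0.791 for Krt10 and -0.227 for Krt14. On deviations from the group means it was -0.923 for Krt5, -0.811 for Krt1, -0.649 for Krt10 and -0.852 for Krt14. The summed level of the 12 macrophage markers was 9326 to 13538 TPM in sham and 5673 to 11948 TPM in CAP-treated wounds at day 6. None of the 12 passed the study's threshold in that comparison, against 3.8% of all genes. An unadjusted limma p under 0.05 was reached by 2 of the 12, against 19.2% of all genes, and no marker was at 0. The part of these markers in the Trpv2 values was not tested.

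**Figure D2:**
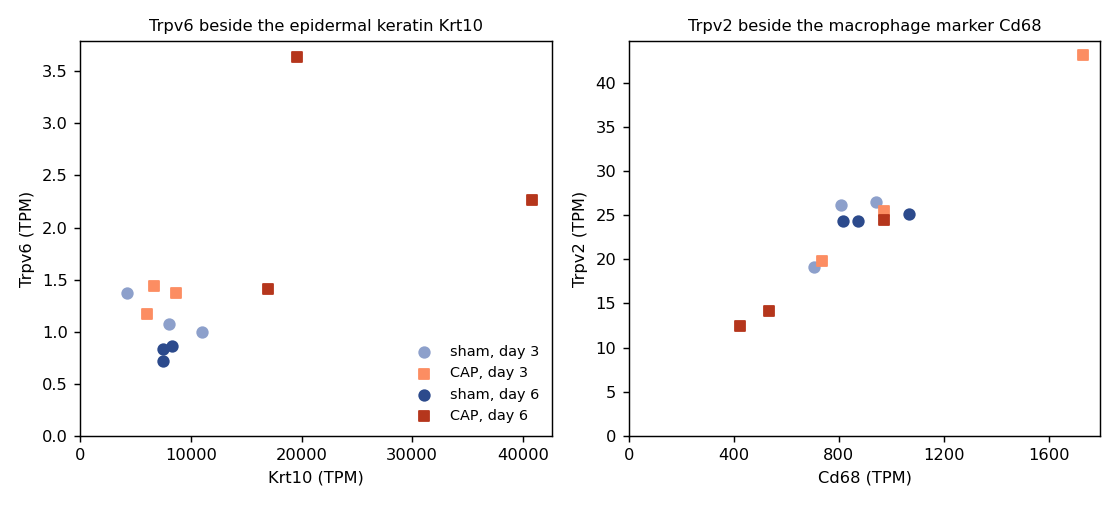
Left, Trpv6 against the epidermal keratin Krt10; right, Trpv2 against the macrophage marker Cd68, both axes in TPM, 1 point per library (circles sham, squares CAP, darker at day 6). The 3 CAP day 6 libraries lie apart from the other 9 in Krt10, and the 12 libraries follow a rising line from 425 TPM of Cd68 and 12.4 TPM of Trpv2 to 1732 and 43.1 TPM.

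Trpc1 read 1.82, 1.71 and 1.26 TPM in the sham group and 1.10, 1.23 and 1.18 TPM in CAP-treated wounds at day 6. The groups did not overlap, the closest pair being 1.26 and 1.23 TPM, and the log2 difference of -0.40 (95% interval -0.998 to 0.19, limma adjusted p = 0.398) did not pass either threshold. Trpm7, Trpm4 and Trpv4 had log2 differences of -0.09, -0.06 and 0.05 at day 6, each with a 95% interval within -0.41 and 0.32, and the signs of the first 2 turned under both other scalings.

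**Figure D3:**
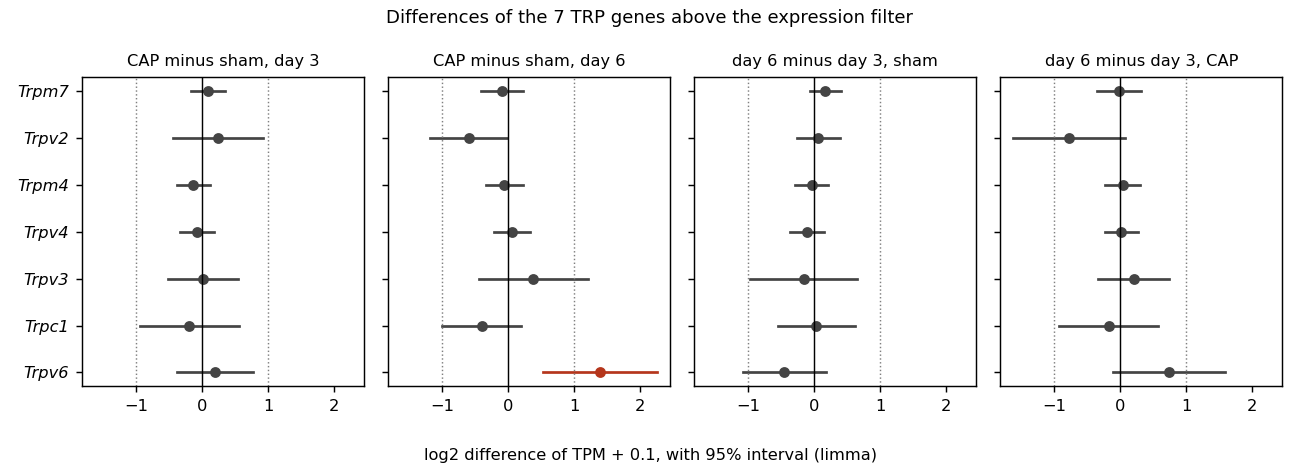
Log2 differences of TPM + 0.1 with 95% limma intervals for the 7 TRP genes above the filter, in 4 comparisons of 3 against 3 libraries; dotted lines mark 2-fold, and red marks the study's threshold. Trpv6 at day 6 (1.40) is the only red point, and Trpv2 has intervals from -1.18 to -0.02 at day 6 and from -1.63 to 0.06 between the days in CAP-treated wounds.

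Between day 3 and day 6, the wound passes from inflammation towards repair. In the sham group 0 of 7 members passed the study's threshold, against 3.75% of all genes, and 0 passed the adjusted p, against 2.29%. No member had a limma p under 0.05, against 16% of all genes. Trpv6 was the 1 member whose groups did not overlap, against 21.4% of all genes: it read 1.38, 1.001 and 1.07 TPM at day 3 and was lower at day 6 in all 3 libraries (log2 -0.46, limma adjusted p = 0.481). In CAP-treated wounds 0 of 7 passed the study's threshold, against 2.79%, and 0 passed the adjusted p, against 0.00549%. No limma p was under 0.05, against 11.6% of all genes, and no member's groups were apart, against 17.7%. Trpv6 read 1.37, 1.44 and 1.17 TPM in CAP-treated wounds at day 3, so that the difference to day 6 was 0.74 (95% interval -0.11 to 1.59). It was 1.07 and past the study's threshold without CAP day 6 replicate 3. Trpv2 had a log2 difference of day 6 to day 3 of -0.78 (95% interval -1.63 to 0.06, limma adjusted p = 0.457), which passed the study's threshold without CAP day 3 replicate 1 (-1.03) or CAP day 6 replicate 3 (-1.08).

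The difference between the CAP effects at the 2 days was tested as an interaction over all 12 libraries. For Trpv6 the CAP effect was larger at day 6 than at day 3 by 1.20 (log2, SE 0.43, 95% interval 0.25 to 2.14, limma adjusted p = 0.428). The effects themselves were 0.20 at day 3 and 1.40 at day 6. It was 1 of 7 members past the study's threshold, against 4.9% of all 20267 genes tested, while 0% passed the adjusted p. Without CAP day 6 replicate 1 the interaction was 0.87, and with a pseudocount of 1 TPM it was 0.76, both short of 2-fold. For Trpv2 it was -0.84 (limma adjusted p = 0.454), and it passed the study's threshold without CAP day 3 replicate 1 (-1.09) or CAP day 6 replicate 3 (-1.13). Trpv6 was the 1 member of 7 with a limma p under 0.05, against 11.3% of all genes.

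Averaged over both days, 0 of 7 members passed the study's threshold, against 1.87% of all genes, and 0 passed the adjusted p, against 0%. Trpv6 had a mean CAP effect of 0.80 (log2, SE 0.21, 95% interval 0.32 to 1.27, limma adjusted p = 0.149), under 2-fold. With libraries exchanged within a day the exact permutation p was 0.015, from 400 divisions of which the smallest possible p is 0.005. This was the lowest permutation p among the members given this test, the next being 0.105 for Trpc1. It was not adjusted for the number of members. Trpv6 was the 1 member with a limma p under 0.05, against 17.7% of all genes.

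Trpv4, Trpm4 and Trpm7 varied little across all 12 libraries. Trpv4 ran from 12.9 to 16.3 TPM, a coefficient of variation of 6.20%, and 95.2% of the 16169 genes that averaged 1 TPM or more varied more. Trpm4 ran from 14.5 to 18.0 TPM (7.17%; 91.4% of genes varied more), and Trpm7 from 22.6 to 30.0 TPM (9.46%; 80.7%). The median gene had 17.7%. Trpv2, Trpc1 and Trpv3 were above that, at 32.5%, 23.8% and 23.0%, and Trpv6 at 56.4% varied more than all but 4.85% of these genes.

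The 3 genes with the highest Pearson's r over the 12 libraries were found for each member averaging 0.3 TPM or more, among the 16169 genes averaging 1 TPM or more. For Trpv2 they were Csf2ra, Itgb2 and Myo1f, each at 0.982. For Trpv3 they were Mst1r (0.936), Erbb2 (0.915) and Prickle3 (0.913), and for Trpv6 Chp1 (0.901), Slc5a9 (0.894) and Lrrc28 (0.859). Those of Trpv6 fell to 0.674, 0.698 and 0.543 on deviations from the group means, while those of Trpv2 stayed between 0.969 and 0.977. Trpm7 was most like Zfyve1 (0.934), Lamp2 (0.931) and Inpp4a (0.927), and Trpc1 most like Gfpt2 (0.958), Gm13431 (0.918) and Eed (0.897). Trpm4 was most like Pigq (0.922), Atp13a1 (0.909) and Kansl1l (0.868), and Trpv4 most like Dcdc2b (0.850), Ctc1 (0.841) and Oga (0.834). The points share a normalization and may differ in tissue makeup, and the values are descriptions.

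Of the 27 TRP family genes followed here, 16 averaged 0.3 TPM or more, 7 averaged 10 TPM or more, and 5 were listed at 0 in every library. Among the 17 that are not members, the lysosomal channel genes Mcoln1 (mean 65.1 TPM) and Mcoln2 (23.0 TPM) and the polycystin channel gene Pkd2 (30.3 TPM) were the most abundant. Trpv5, the closest relative of Trpv6, was listed at 0 in all libraries but 1.

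Mcoln3, another mucolipin channel of endosomes and lysosomes, moved most within the family. In the sham group it read 0.612, 2.12 and 1.42 TPM at day 3 and 5.94, 8.79 and 16.3 TPM at day 6, with no overlap (log2 2.84, limma adjusted p = 0.0394). The adjusted p did not pass 0.05 in a joint fit of all 12 libraries (limma adjusted p = 0.211), with no expression filter (0.108), or on leaving out any 1 of 5 of the 6 libraries (0.0561 to 0.121), the exception being sham day 3 replicate 1. In CAP-treated wounds it read 1.82, 6.21 and 11.3 TPM at day 3 and 2.89, 1.81 and 14.5 TPM at day 6, a wide spread at both times. CAP was past the study's threshold over sham at day 3 (log2 1.95, limma adjusted p = 0.713), a call that was lost without CAP day 3 replicate 2 or replicate 3. The interaction was -3.08 (limma adjusted p = 0.428).

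Trpc6, a calcium-permeable channel gene, passed the study's threshold between the days in the sham group, higher at day 6 by 1.19 on the log2 scale (limma adjusted p = 0.168). It read 0.736, 0.308 and 0.505 TPM at day 3 and 1.12, 1.10 and 1.58 TPM at day 6. Of the 17 family genes, the study's threshold was passed at day 3 by 1 of 8 tested, at day 6 by 0 of 9, between the days by 2 of 9 in sham and 0 of 8 in CAP-treated wounds. Over all genes the shares were 1.58%, 3.8%, 3.75% and 2.79%. Where that count was 0, an unadjusted limma p under 0.05 was reached by 2 of 9 at day 6 and by 0 of 8 between the days in CAP-treated wounds, against 19.2% and 11.6% of all genes. For the interaction the study's threshold was passed by 2 of 10, against 4.9% of all genes, both lower: Mcoln3 and Trpm2 (-2.02), a channel opened by oxidative stress in leukocytes. Trpm2 read 2.98, 1.60 and 8.36 TPM in CAP-treated wounds at day 6, with the high value again in replicate 3. Over the 6 lists described next, the count of 2 in the interaction was 0 without CAP day 3 replicate 3 or CAP day 6 replicate 2, 1 without replicate 2 of sham day 3 or of CAP day 3, 4 without CAP day 3 replicate 1, 5 without sham day 3 replicate 1 and 6 without CAP day 6 replicate 3.

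**Figure D4:**
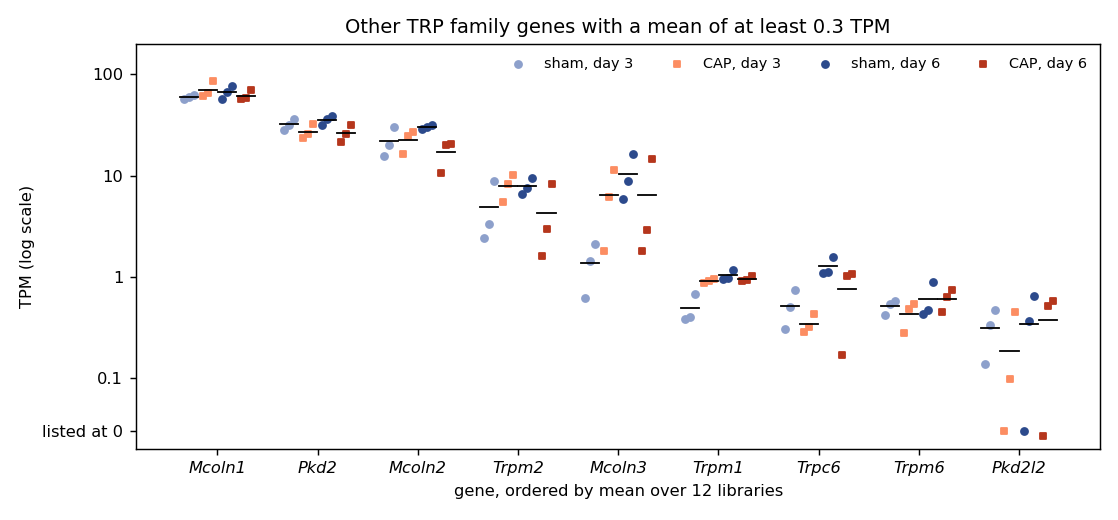
TPM on a log scale for the 9 further TRP family genes that averaged 0.3 TPM or more, in each of the 12 libraries (circles sham, squares CAP, darker at day 6; black bars, group means). Mcoln3 rises from 0.612 to 2.12 TPM in sham day 3 to 5.94 to 16.3 TPM in sham day 6, and Mcoln1 lies between 56.6 and 85.5 TPM in all libraries.

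Genes that act on these channels were followed in 6 lists of 57 genes, the TRP family genes above included. At day 6, 3 of the 44 tested passed the study's threshold for CAP against sham (3.8% of all genes did), 1 without sham day 6 replicate 1 or CAP day 6 replicate 2, and 6 without CAP day 6 replicate 3. Bdkrb1, the inducible bradykinin receptor through which TRPV1 can be sensitised, read 6.09, 6.04 and 3.27 TPM in the sham group and 1.61, 0.631 and 2.43 TPM in CAP-treated wounds. Its groups did not overlap and the log2 difference was -1.78 (SE 0.49, limma adjusted p = 0.209). Averaged over both days it was -1.11 (limma adjusted p = 0.168), the 1 listed gene of 46 past the study's threshold, which 1.87% of all genes passed. That count was 0 without sham day 3 replicate 1 or CAP day 6 replicate 2 and 2 without sham day 3 replicate 2 or sham day 6 replicate 3.

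Alox15, a lipoxygenase that makes lipid activators of TRPV1, was higher in CAP-treated wounds at day 6 (log2 1.25, limma adjusted p = 0.248), as was Tgm3 (1.15, limma adjusted p = 0.250), an epidermal transglutaminase. Alox15 read 0.718, 0.212 and 1.02 TPM in sham and 1.26, 1.84 and 1.36 TPM in CAP-treated wounds. Tgm3 read 18.6, 38.4 and 20.8 TPM in sham and 91.6, 64.6 and 27.4 TPM in CAP-treated wounds, where the groups overlapped. At day 3, 1 of 44 listed genes passed the study's threshold, Mcoln3, against 1.58% of all genes.

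Between the days, 3 of 45 listed genes passed it in the sham group (3.75% of all genes did), the channel genes Mcoln3 and Trpc6 and Tacr1, the substance P receptor, which read 0.853, 0.751 and 0.767 TPM at day 3 and 2.096, 2.30 and 3.47 TPM at day 6 (log2 1.58, limma adjusted p = 0.0336). The adjusted p of Tacr1 did not pass 0.05 in the joint fit of 12 libraries (limma adjusted p = 0.197), with no expression filter (0.0921), with the replicate number as a block (0.066) or on leaving out any 1 of the 6 libraries (0.0505 to 0.12). In CAP-treated wounds 2 of 43 passed the study's threshold (2.79% of all genes did), and 1 without CAP day 3 replicate 2: Bdkrb1 was lower at day 6 (-1.63) and Faah, which breaks down the endogenous TRPV1 agonist anandamide, was higher (1.04, limma adjusted p = 0.336). Pirt, a neuronal regulator of TRPV1, was listed at 0 throughout. The 5 genes of store-operated calcium entry had 0 calls by limma in the 6 comparisons. Over all genes the shares called ran from 1.58% to 4.9% by the study's threshold and from 0% to 2.29% by the adjusted p. At most 3 of the 5 had an unadjusted limma p under 0.05, for CAP against sham at day 6, against 19.2% of all genes.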

How the data were processed

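RNA from 12 wound libraries was made into mRNA libraries (SureSelect XT HS2) and sequenced paired-end. Per the labels and the study's methods, the authors trimmed reads with Trimmomatic 0.36, used the mm10 build and StringTie, and deposited TPM values per gene and library; the sources used here do not name the aligner, annotation release or strand use. TPM keep no read depth, so no counting interval can be given, and many abundant keratin transcripts in a library lower the TPM of all other genes. Genes averaging 0.3 TPM or more in each group compared (in 1 of 4 groups for fits of all 12 libraries) were fitted with limma 3.58.1 (R 4.3.3) on log2(TPM + 0.1), with a trend of variance on level and Benjamini-Hochberg adjustment. The fit was tested on simulated data. Single genes were also tested with exact two-sided permutation tests (Python 3.11.15). Replicate numbers were not used as pairs in the main fits. Same-number correlations of deviations ran from -0.17 to 0.29, and different-number ones from -0.27 to 0.25. For CAP against sham at day 6 the same-number values were 0.03, 0.12 and 0.11. The different-number values there ran from -0.10 to -0.004. Whether the numbers pair libraries is thus not known. Named genes were the 10 members, genes of 19 lists past a call rule or set beside a member, and the 3 genes most like each member above 0.3 TPM. Members and lists were chosen with earlier results of these data known, and some listed genes are not reported here. Alternatives were pseudocounts of 1 and 0.01 TPM, no filter, median-ratio and quantile scaling, a replicate block, a joint fit and leaving out each library.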

Additional observations from a re-analysis of the deposited data

Results flagged for a closer look

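The CAP effect on Trpv6 differed between the days by the interaction term of the limma fit over 12 libraries: it was larger at day 6 than at day 3 by 1.20 on the log2 scale (limma adjusted p = 0.428), past the study's threshold but not the adjusted one. The effect was 0.20 at day 3, where the groups overlapped, and 1.40 at day 6, where all 3 CAP-treated wounds were above all 3 sham wounds. The interaction was 0.87 without CAP day 6 replicate 1 and 1.52 without CAP day 6 replicate 3.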

How the results depend on the processing

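Over 42 member differences and 616 alternative values, 563 kept direction and side of the study's threshold, 3 no longer passed it, 5 newly passed it and 45 changed sign, in 22 differences that were at most 0.378 in size on the log2 scale. With a pseudocount of 1 TPM the members past the study's threshold went from 1 to 0 at day 6 (Trpv6, 0.88) and in the interaction (Trpv6, 0.76), and the listed genes from 3 to 1 between days in sham and from 1 to 0 for the mean of both days, the latter also 0 under quantile normalization. Under median-ratio scaling the sign changed, to log2 values above 0, for Trpm7 0.0223 (day 6), Trpm4 0.0487 (day 6), Trpm7 0.0256 (CAP between days) and Trpv4 0.0752 (mean of both days). Under quantile normalization the sign changed, to log2 values above 0, for Trpm7 0.0154 (day 6), Trpm4 0.0793 (day 6), Trpm7 0.0365 (CAP between days), Trpv4 0.0953 (mean of both days) and Trpm4 0.00409 (mean of both days). Leaving out 1 library at a time, members past the study's threshold ranged from 0 to 2 in the interaction and between days in CAP-treated wounds, members past the adjusted p from 0 to 2 at day 6, and listed genes from 0 to 1 at day 3, 1 to 6 at day 6, 1 to 3 between days in CAP-treated wounds, 0 to 6 in the interaction and 0 to 2 for the mean of both days. Differences that changed sign on leaving out 1 library had these log2 ranges. At day 3 they were Trpc1 -0.477 to 0.0128, Trpv2 -0.0722 to 0.486 and Trpv3 -0.12 to 0.244. At day 6 they were Trpm4 -0.137 to 0.00723, Trpm7 -0.174 to 0.0265 and Trpv3 -0.0449 to 0.616. Between days they were, in sham, Trpc1 -0.0693 to 0.181, Trpm4 -0.111 to 0.0339, Trpv2 -0.0942 to 0.138 and Trpv3 -0.402 to 0.259. In CAP-treated wounds between days they were Trpc1 -0.384 to 0.106, Trpm4 -0.00795 to 0.103, Trpm7 -0.101 to 0.0993, Trpv3 -0.0302 to 0.334 and Trpv4 -0.0255 to 0.0439. In the interaction they were Trpc1 -0.414 to 0.0755, Trpm4 -0.000725 to 0.144 and Trpv3 -0.057 to 0.604. For the mean of both days they were Trpm7 -0.0394 to 0.061, Trpv3 -0.0164 to 0.314 and Trpv4 -0.0418 to 0.0206. With the replicate number as a block, Trpv6 at day 6 was 1.40 (limma adjusted p = 0.152), the interaction 1.20 (adjusted p = 0.272), and no member call changed, while over all genes the adjusted p called 246 genes in place of 0 for the mean of both days. Over all genes the study's threshold called 697 genes at day 6, 385 with a pseudocount of 1 TPM, 311 without CAP day 6 replicate 2 and 1483 without replicate 3. It called 290 genes at day 3, 154 with a pseudocount of 1 TPM, 568 with no filter and 510 without CAP day 3 replicate 1. Between days it called 688 genes in sham, 405 with a pseudocount of 1 TPM and 1156 with no filter, and 507, 299 and 842 in CAP-treated wounds. In the interaction it called 994 genes, 580 with a pseudocount of 1 TPM, and for the mean of both days 380 and 77. The adjusted p called 420 genes between days in sham, 114 with no filter, 0 in the joint fit and 1 to 275 on leaving out a library that moved it. The cause of these changes was not tested. The number of reads is unknown, which limits what can be said of Trpv1, Trpm8 and Trpa1.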
